A study of Homo sapiens with 2 samples.

Results

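When DNA is copied, nucleosomes are taken apart ahead of the fork and rebuilt behind it, and the marks on parental DNA and histones are written again on the daughter strands. The 10 genes described here, UHRF1, DNMT1, EZH2, HELLS, ATAD2, SUV39H1, CHAF1A, CHAF1B, ASF1B and DEK, encode proteins of this process: chaperones that hand over histones, enzymes that restore DNA and histone methylation, and proteins that read or remodel the new chromatin. They were taken as a list of gene names, and each was represented by every probe whose RefSeq accession names it. All 10 were measured, among 16052 measured genes of 21743 named on the array. In dividing cells the messenger RNAs of many such genes accumulate around S phase, and several are described as E2F targets.

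The cells were MRC-5, an established human line of fibroblasts from fetal lung, transfected either with control siRNA or with siRNA against POSTN, the gene of the matricellular protein periostin. Both siRNAs (ON-TARGETplus, in RNAiMAX reagent) were used at 10 nM for 48 h, and the question asked of the arrays was which genes depend on periostin. RNA of 1 culture per condition was labelled with Cy3 and hybridized to 1 Agilent array, and both arrays lay on 1 slide. Since each condition had 1 array, no difference could be tested and no p-value is given. Differences are therefore described as values, each with the error of its spots, and the spread between cultures is unknown.

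A value below is the background-subtracted intensity of a probe after each array was scaled to a common 75th percentile of 377, the percentiles before scaling being 372 with control siRNA and 383 with periostin siRNA. Ratios are log2 of periostin siRNA over control siRNA. The POSTN probe read 2638 on the control array and 279.75 on the periostin array, a ratio of -3.24 ± 0.20 (error propagated by the scanner software, 1 spot), so 10.6% of the control signal remained. The spots well above background were 58.0% and 58.9% of 58717, and none was saturated. Probes printed 10 times differed between their spots with a pooled SD of the log2 ratio of 0.12. All 12 fibroblast markers were measured, with a median log2 ratio of -0.10, and COL1A1, COL1A2 and VIM had signals of 39167, 71038 and 189263 with control siRNA. Of 7 epithelial markers 5 were measured, with a median of 0.66, and 2 were higher by more than 2-fold, beside 7.97% of all measured genes. CDH1 and KRT5 were below background on both arrays. EPCAM, 1 of the 2 higher markers, read 34.6 with control siRNA and 135 with periostin siRNA, and its part in the values of the 10 genes was not tested. PECAM1 of 5 endothelial markers, and the immune markers LAPTM5 and HLA-DRA, were below background on both arrays. The other 4 endothelial markers were measured, with TEK at 5457 with control siRNA. Of 7 immune markers 3 were measured, 1 of them on 1 array alone, with CD68 at 1528 with control siRNA.

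The 10 genes did not share 1 response. ASF1B was 4.45-fold lower with periostin siRNA and UHRF1 was 2.56-fold lower, EZH2, CHAF1A, HELLS and ATAD2 were between 1.30-fold and 1.75-fold lower, and DNMT1, DEK, SUV39H1 and CHAF1B lay within 0.2 of 0 on the log2 scale. In counts, 1 of 10 genes was lower by more than 3-fold, against 2.75% of all measured genes, and 2 of 10 were lower by more than 2-fold, against 6.42%. None was higher by more than 3-fold, against 3.37%. A log2 ratio below 0 was found for 7 of 10 genes, against 45.5% of all measured genes, and with scaling on the median for all 10, against 55.9%. The median of the 10 was -0.47, beside 0.06 for all measured genes. With so few members these counts describe the list and were not tested. All 14 probes of the 10 genes, on 23 spots, stood well above background with either siRNA and none of their spots was flagged as an outlier. In RNA from a whole culture, fewer cells of a kind and less RNA per cell cannot be told apart.

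**Figure D1:**
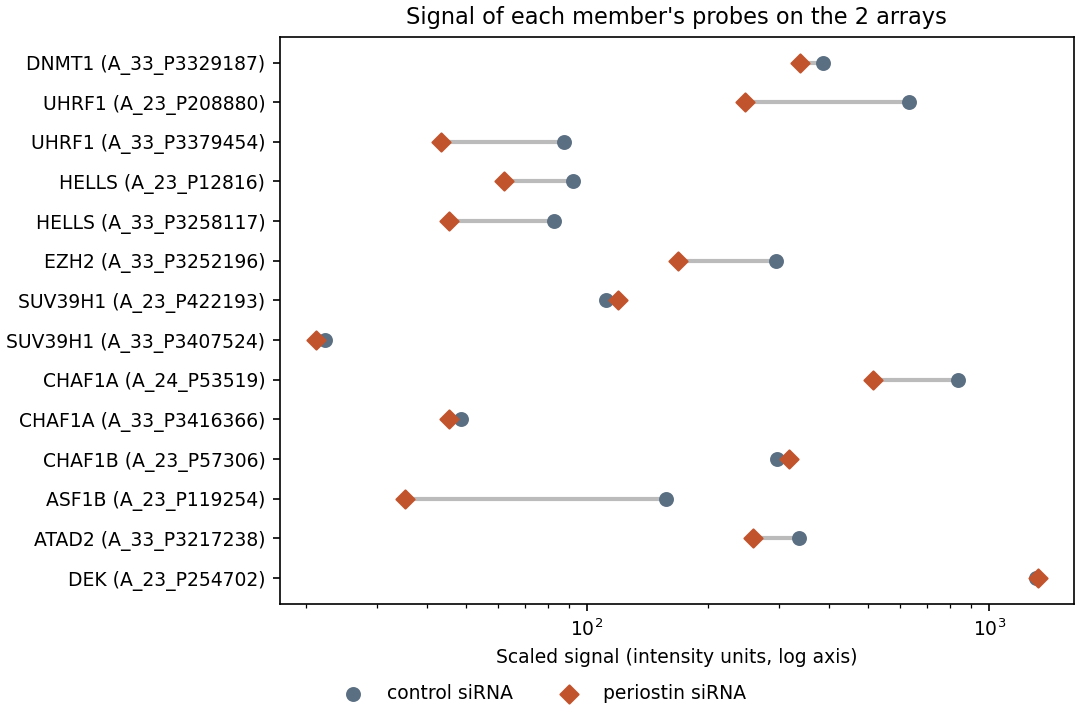
Scaled signal of all 14 probes of the 10 genes on the control siRNA array (circles) and the periostin siRNA array (diamonds), 1 array each, on a log axis in intensity units. The longest lines belong to ASF1B (157 and 35.2) and UHRF1 (632 and 247), and the points of DEK, SUV39H1 and CHAF1B nearly coincide. Positions of different probes along the axis are not comparable.

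The histone chaperones differed most among themselves. ASF1B is the proliferation-associated form of the chaperone that carries new H3-H4 dimers to the assembly factors. Its probe A_23_P119254 read 157 on the control array and 35.2 on the periostin array, a log2 ratio of -2.15 ± 0.22 (propagated error, 1 spot). This was the lowest ratio of the 10, and 1.43% of all measured genes had a lower one. On the control array the signal was well clear of the array's dimmest detected spots, which lay at 7.55, but on the periostin array it had come closer to them. The median pixel above the local background was 144 on the control array and 38 on the periostin array. Because of this dim second signal the value depended on the background correction: with the normexp correction and its offset of 50 the ratio was -1.16, and ASF1B no longer passed 3-fold, which 1.19% of all genes did in that setting.

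CHAF1A and CHAF1B encode the large and middle subunits of chromatin assembly factor 1 (CAF-1), which receives histones from ASF1 and deposits them at the fork. The brighter CHAF1A probe, A_24_P53519, read 834 on the control array and 513 on the periostin array, a log2 ratio of -0.70 ± 0.20. The second CHAF1A probe, A_33_P3416366, targets the same transcript accession and read 48.7 and 45.4, a ratio of -0.10 ± 0.22. The lower value of CHAF1A thus rests on 1 of its 2 probes, the brighter one.

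CHAF1B was printed 10 times, so the spread between its spots could be read directly. This SD is another measure than the propagated error given for the other genes, which for CHAF1B was 0.20. Its spots read from 281 to 317 on the control array, with a median of 295, and from 299 to 341 on the periostin array, with a median of 317. The spots of the 2 arrays overlapped in signal, and the log2 ratio was 0.10 ± 0.06 (SD over 10 spots), every spot lying above 0 with a lowest ratio of 0.0073, although scaling on the median gave -0.03. With the brighter CHAF1A probe, CHAF1A minus CHAF1B was -0.80 ± 0.21 on the log2 scale. This error combines both propagated errors, that of CHAF1B divided by the square root of its 10 spots. No such difference was computed for the second CHAF1A probe, whose own ratio was -0.10 ± 0.22, so the difference between the partner subunits rests on the brighter probe.

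The genes that keep DNA methylation in place were also unequal. UHRF1 binds hemimethylated DNA behind the fork and recruits DNMT1, the maintenance methyltransferase, while HELLS is a SNF2-family remodeller that opens heterochromatin for methylation. UHRF1 probe A_23_P208880 read 632 on the control array and 247 on the periostin array, a log2 ratio of -1.36 ± 0.20, and 3.78% of measured genes had a lower one. The second UHRF1 probe, A_33_P3379454, designed on another transcript accession, read 87.6 and 43.4, a ratio of -1.01 ± 0.22. Both probes were thus more than 2-fold lower, and among the 4 of the 10 genes with several probes UHRF1 had the lowest ratios.

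For DNMT1, 1 probe was available, which read 387 on the control array and 338 on the periostin array, a log2 ratio of -0.19 ± 0.20. That difference is within the propagated error, but larger than the SD of 0.097 between replicate spots of like brightness. HELLS probe A_23_P12816 read 92.2 and 62.3, a ratio of -0.57 ± 0.21, and its other probe, A_33_P3258117, read 82.9 and 45.4, a ratio of -0.87 ± 0.21. Both HELLS probes were lower, by 1.48-fold and 1.82-fold, at signals where replicate spots of like brightness differed with an SD of 0.24, and with normexp the first ratio was -0.35. Within the UHRF1-DNMT1 pair the ratio of UHRF1 was lower by -1.16 ± 0.29 on the log2 scale.

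**Figure D2:**
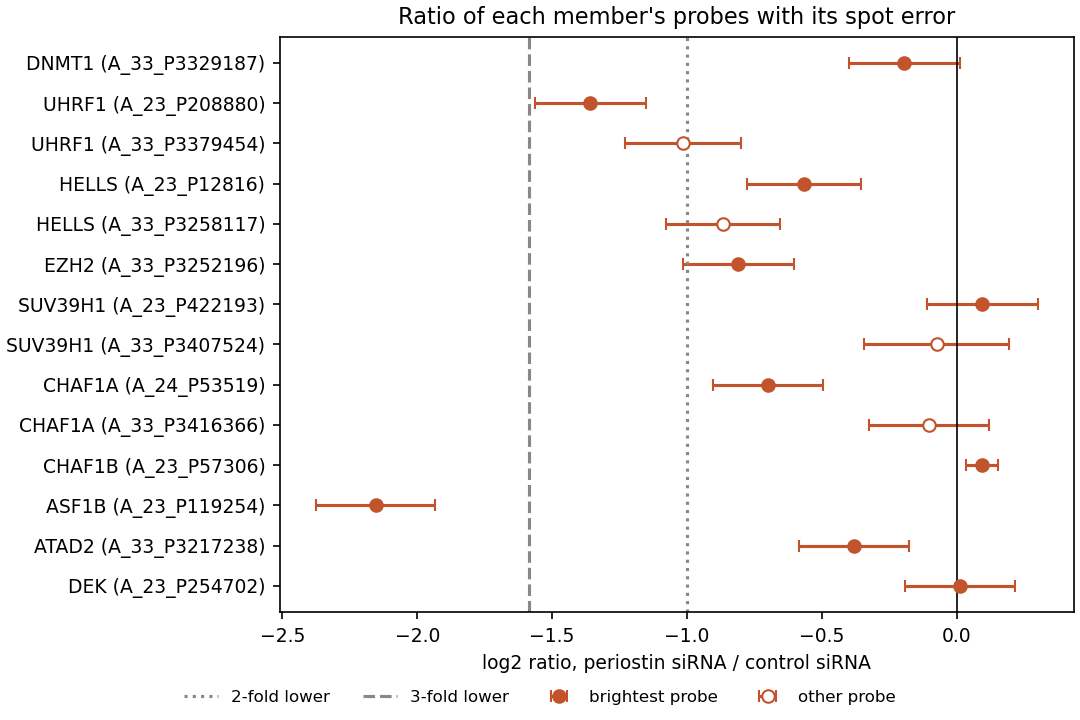
log2 of the periostin siRNA signal over the control siRNA signal for all 14 probes of the 10 genes, with bars for the SD over 10 spots (CHAF1B) or the error propagated for 1 spot (all others). Filled points are the brightest probe of a gene and open points its other probe; ASF1B lies beyond the 3-fold line, both UHRF1 probes lie at or beyond the 2-fold line, and the CHAF1A probes lie at -0.70 and -0.10.

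The histone methyltransferases were EZH2 and SUV39H1. EZH2 is the catalytic subunit of Polycomb repressive complex 2 (PRC2) and methylates lysine 27 of histone H3, and SUV39H1 methylates lysine 9 at constitutive heterochromatin. The EZH2 probe read 295 on the control array and 168 on the periostin array, a log2 ratio of -0.81 ± 0.20, or 1.75-fold lower, with 8.71% of measured genes lower. The brighter SUV39H1 probe read 112 and 119, a ratio of 0.09 ± 0.21. Its second probe read 22.3 and 21.2, a ratio of -0.07 ± 0.27. The SUV39H1 probes had opposite signs, and both ratios were smaller than their errors.

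ATAD2 is a bromodomain ATPase that binds acetylated histones on newly made chromatin, and DEK is an abundant chromatin protein with histone chaperone activity. ATAD2 read 336 on the control array and 258 on the periostin array, a log2 ratio of -0.38 ± 0.20, or 1.30-fold lower. DEK read 1305 and 1318, a ratio of 0.01 ± 0.20. DEK thus had the same signal on both arrays within the error, and its sign turned in 3 of 12 other settings, of which the lowest gave -0.11.

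**Figure D3:**
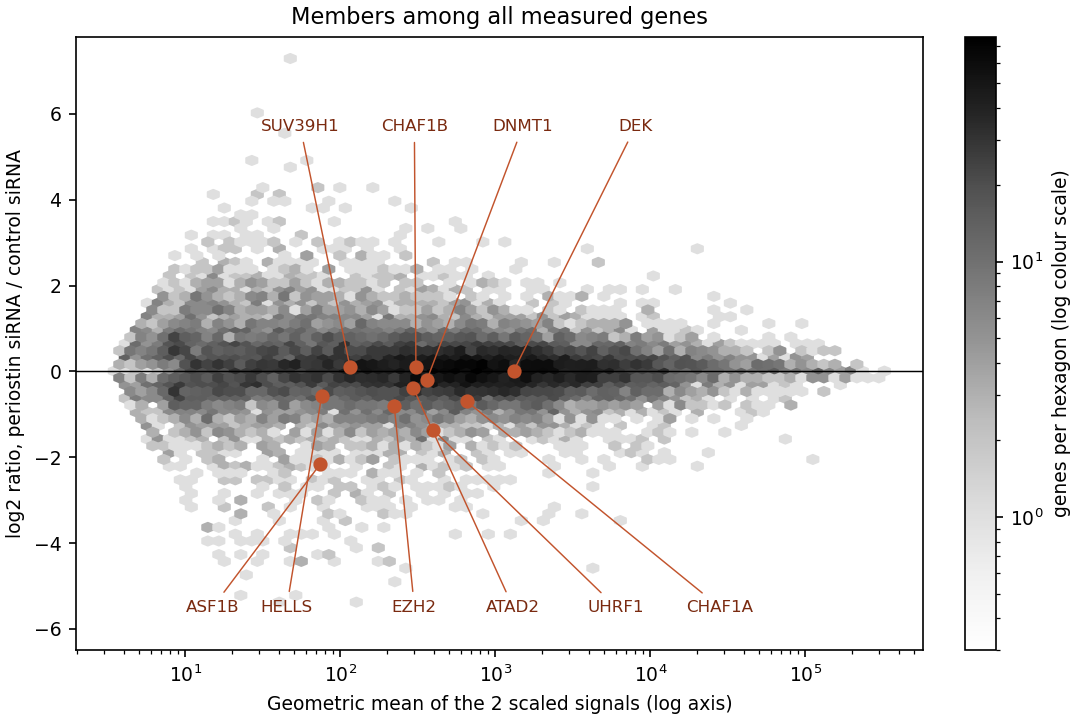
log2 of the periostin siRNA signal over the control siRNA signal against the geometric mean of both scaled signals (log axis) for the brightest probe of all 16052 measured genes, with the 10 genes as orange points. The grey scale gives the number of genes per hexagon on a log colour scale; ASF1B, at -2.15, lies in the lower fringe, and DNMT1, DEK, SUV39H1 and CHAF1B lie in the dense band around 0.

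The start sites of these genes were then inspected for letters of cell cycle promoter elements. RefSeq start windows (GRCh38.p14) were used for 9 of the 10 genes, all but ATAD2, with 13 windows in all. Each window, from 250 bases before to 50 after the start, was searched on both strands. E2F-type letters of 8 bases (TTTCCCGC, TTTCGCGC, TTTGCCGC or TTTGGCGC) were found in UHRF1, DNMT1, EZH2 and HELLS, 4 of 9 genes, and in 3.99% of 27305 genes with a window. The same 4 strings without their first letter (7 bases each), which every 8-letter match also contains, were counted as a shorter form, and it was found besides in CHAF1A, CHAF1B and DEK, making 7 of 9 genes against 15.3% of all. CHR-type letters (TTTGAA or TTCGAA), the element named for cell cycle homology regions, were found in ASF1B and DEK, against 19.5% of all genes. CCAAT was found in 7 of 9 genes, against 39.7%. Only CCAAT was found in SUV39H1. The windows of the 9 genes held from 56.3% (SUV39H1) to 79.7% (UHRF1) G or C. The shares of all genes were not matched for this or for the number of starts per gene. Since the letters were also chosen with the windows in view, these shares are descriptions.

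The stretch from 70 bases before to 30 after the start is shown for the 7 genes with E2F-type letters and for ASF1B, which was added after its value was seen because it holds CHR-type letters in their place. The windows lie at chr19:4909431-4909530 (UHRF1, plus strand, the first of its 3 starts), chr19:10194924-10195023 (DNMT1, minus strand), chr7:148884262-148884361 (EZH2, minus strand, the second of its 2 starts), chr10:94545718-94545817 (HELLS, plus strand), chr19:4402570-4402669 (CHAF1A, plus strand), chr21:36385322-36385421 (CHAF1B, plus strand), chr6:18264501-18264600 (DEK, minus strand) and chr19:14136560-14136659 (ASF1B, minus strand). All are written 5′ to 3′ in the direction of transcription, and capitals mark E2F-type or CHR-type letters, also where they read on the other strand:
UHRF1: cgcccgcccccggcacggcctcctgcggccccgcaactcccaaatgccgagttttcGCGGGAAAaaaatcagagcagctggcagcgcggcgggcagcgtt
DNMT1: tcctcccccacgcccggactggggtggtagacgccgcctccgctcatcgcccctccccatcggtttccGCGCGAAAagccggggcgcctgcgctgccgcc
EZH2: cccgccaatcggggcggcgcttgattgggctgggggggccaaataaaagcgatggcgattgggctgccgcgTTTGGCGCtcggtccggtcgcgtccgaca
HELLS: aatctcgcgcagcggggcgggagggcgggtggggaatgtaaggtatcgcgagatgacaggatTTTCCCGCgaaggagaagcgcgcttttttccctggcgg
CHAF1A: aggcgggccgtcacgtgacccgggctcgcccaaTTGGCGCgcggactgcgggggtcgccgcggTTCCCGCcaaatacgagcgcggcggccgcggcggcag
CHAF1B: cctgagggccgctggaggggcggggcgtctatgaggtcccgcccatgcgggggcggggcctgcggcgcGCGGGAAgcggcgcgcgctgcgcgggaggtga
DEK: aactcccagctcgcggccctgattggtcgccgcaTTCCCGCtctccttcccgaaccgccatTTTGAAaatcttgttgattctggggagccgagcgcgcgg
ASF1B: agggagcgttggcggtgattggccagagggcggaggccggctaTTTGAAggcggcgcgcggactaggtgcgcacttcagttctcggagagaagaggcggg

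In these windows the E2F-type letters of UHRF1 lie at positions -14 to -7 on the minus strand, counted from the first transcribed base as 1 with no position 0, and those of HELLS at -8 to -1 on the plus strand. The letters of DNMT1 span the start, from -2 to 6, and those of EZH2 lie after it, at 2 to 9. The CHR-type letters of ASF1B lie at -27 to -22 and those of DEK at -9 to -4. Set beside the ratios, the 4 genes with 8-letter E2F-type matches ran from -1.36 (UHRF1) to -0.19 (DNMT1), while the pair with CHR-type letters had ratios of -2.15 (ASF1B) and 0.01 (DEK). Genes with letters of the same kind near their start thus had unlike ratios, and what part the letters have in the ratios was not tested. Over all measured genes with a window, 2004 with CHR-type letters had a median log2 ratio of -0.01, with 5.24% lower by more than 3-fold, against 2.08% of those without. The 757 with 8-letter E2F-type letters had a median of 0.01, with 2.91% lower by more than 3-fold, against 2.57% of those without. For the 2817 with the 7-letter form the median was 0.02, with 3.19% lower by more than 3-fold, against 2.41%. For the 5235 with CCAAT it was 0.04, with 3.19% against 2.15%.

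The closest relatives of the 10 genes had ratios on both sides of 0, 6 above and 2 below. All 8 listed paralogues were measured and their median log2 ratio was 0.31. None lay beyond 2-fold in either direction, and 8 of the 10 genes themselves were also within 2-fold. Of all measured genes 6.42% were lower and 7.97% higher by more than 2-fold. EZH1, the PRC2 methyltransferase of resting and differentiated cells, read 382 on the control array and 733 on the periostin array, a ratio of 0.94 ± 0.20, where EZH2 had -0.81. The 2 alternative catalytic subunits of PRC2 therefore had ratios of opposite sign, each larger than its spot error. ASF1A, the form of ASF1 that is also made outside the cell cycle, read 60.0 and 77.5, a ratio of 0.37 ± 0.21, where ASF1B had -2.15. The de novo methyltransferases DNMT3A and DNMT3B had ratios of 0.51 ± 0.20 and 0.74 ± 0.21, and UHRF2 had 0.11 ± 0.20. ATAD2B, at 0.26 ± 0.21, had the opposite sign to ATAD2. For SUV39H2 the order was the other way round, at -0.45 ± 0.20 where SUV39H1 had 0.09. SMARCA5, a remodeller related to HELLS, had -0.24 ± 0.20. SUV39H2 and SMARCA5 were below 0 in all 12 other settings. EZH1, ASF1A, ATAD2B, DNMT3A and DNMT3B were above 0 in all 12, while UHRF2 turned to -0.02 with scaling on the median.

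Lists of other genes of each pathway were described in the same way. Of 20 genes of DNA methylation and its cofactors, 19 were measured with a median of 0.12. Among them 1 (5.26%) was lower by more than 2-fold by its brightest probe, against 6.42% of all measured genes. This 1 gene was CDCA7, which recruits HELLS to chromatin, at -1.49 ± 0.21 from its brighter probe (189 and 67.3), although its other probe gave 0.11. Probes of other genes of the list were also unequal. ZBTB24 was counted at 0.23 and its other probe gave -1.92, and TET2 was counted at 0.44 with probes from -0.75 to 1.65. LIG1, the ligase that seals Okazaki fragments and is bound by UHRF1, had the highest ratio, 0.75 ± 0.20, and PCNA, the clamp that holds DNMT1 and CAF-1 at the fork, had 0.42 ± 0.20. UHRF1 and its partners at the fork thus had ratios on both sides of 0.

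For EZH2, the other PRC2 genes (10 of 12 measured) had a median of -0.15, ranging from -0.46 for LCOR to 0.94 for EZH1. SUZ12, a core subunit that EZH2 needs for its activity, had -0.19 ± 0.07 (SD over 10 spots). EED was not named by a probe here. The 18 of 19 PRC1 genes measured had a median of 0.02, from PCGF1 at -0.80 to PCGF3 at 0.66. None lay beyond 2-fold, where 6.42% of all measured genes were lower and 7.97% higher. The ratio of EZH2 was thus below those of all 10 other PRC2 genes measured, LCOR being the nearest.

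Around SUV39H1, all 15 genes of H3 lysine 9 and H4 lysine 20 methylation were measured, with a median of 0.06. CBX3, the heterochromatin protein HP1γ, read 13895 on the control array and 4260 on the periostin array, a ratio of -1.71 ± 0.20, and its second probe gave -2.09. KMT5A, the H4 lysine 20 monomethylase that is active around mitosis, had -1.26 ± 0.20, while KMT5C and L3MBTL1 were more than 2-fold higher, at 1.03 ± 0.20 and 1.19 ± 0.20. The 12 histone demethylases had a median of -0.02, from PHF8 (-0.75) to KDM4B (0.56).

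Beside ASF1B and CAF-1, all 29 other histone chaperones and their carriers were measured, with a median of -0.20. Of these 18 (62.1%) were below 0, against 45.5% of all measured genes. HJURP, which loads the centromeric histone CENP-A after mitosis, read 714 on the control array and 73.0 on the periostin array, a ratio of -3.29 ± 0.21, lower than that of ASF1B. IPO4, the importin that carries H3-H4 with ASF1 into the nucleus, had -1.49 ± 0.20, and CDAN1, which holds ASF1 in the cytoplasm, had the highest ratio, 0.62 ± 0.21. The 23 of 24 remodellers and bromodomain proteins measured had a median of -0.11, from BAZ1A (-0.57) to BAZ2A (0.76). Over the 124 other chromatin genes measured of 129 listed, the median was -0.06 and 2 (HJURP and CBX3) were lower by more than 3-fold, 1.61% against 2.75% of all measured genes.

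**Figure D4:**
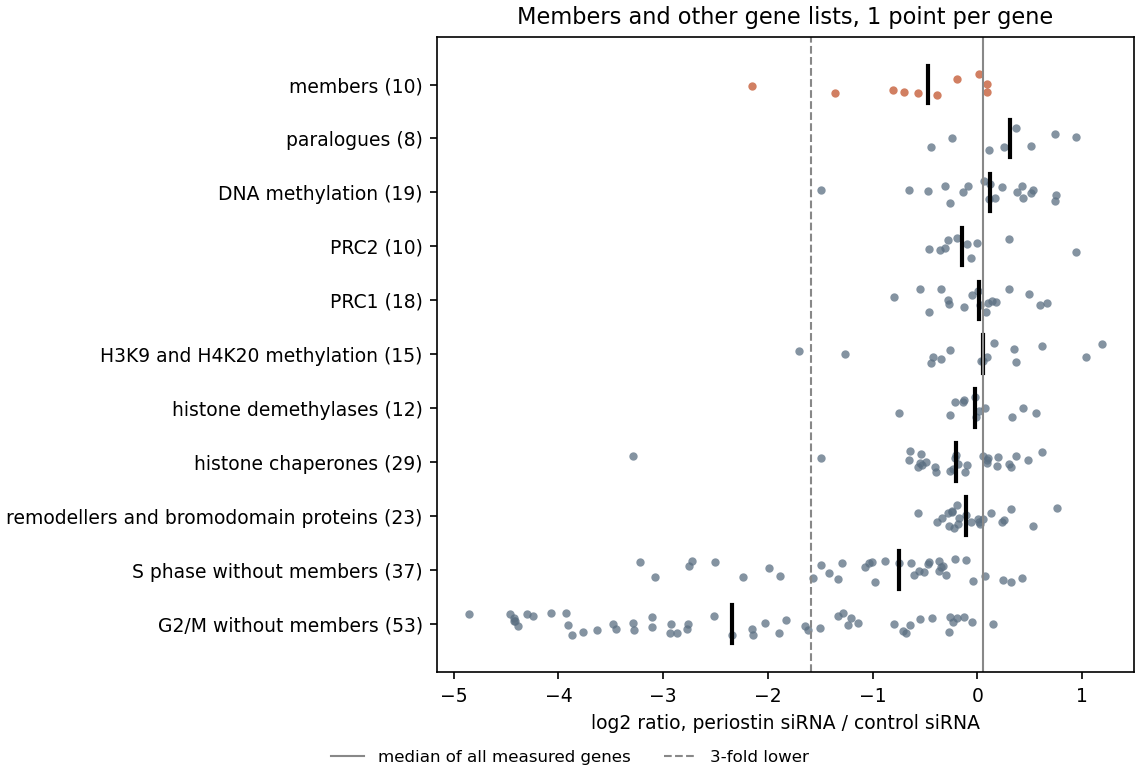
log2 of the periostin siRNA signal over the control siRNA signal for each measured gene (1 point per gene, number of genes in brackets) of the 10 members and of the other lists, with a black bar at each list's median. The members' median, -0.47, lies between that of the other S phase genes, -0.75, and those of the chromatin lists, which run from -0.20 to 0.31, and the G2/M list has a median of -2.34.

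Cell cycle genes were lower on the same array. Among the genes of the S phase list of the Seurat package that are not among the 10, 37 of 39 were measured, with a median of -0.75. Of these 33 (89.2%) were below 0, against 45.5% of all measured genes, and 8 (21.6%) were lower by more than 3-fold, against 2.75%. Of the G2/M list 53 of 54 were measured, with a median of -2.34 and 34 (64.2%) lower by more than 3-fold, against the same 2.75%. The S phase list itself holds 4 of the 10 genes, whose median of -0.47 was like that of the other 6, -0.45. What part the change in cell cycle genes has in the values of the 10 genes was not tested, and on a single pair of arrays they cannot be told apart.

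The values were recomputed under 12 other settings of background correction, scaling and probe choice. UHRF1 ran from -1.49 to -1.01, EZH2 from -0.94 to -0.71, and ATAD2 from -0.51 to -0.28. ASF1B ran from -2.28 to -1.16, HELLS from -0.87 to -0.35, DNMT1 from -0.32 to -0.15 and CHAF1A from -0.83 to -0.10. These 7 genes were below 0 in all 12. SUV39H1, CHAF1B and DEK crossed 0, the first between -0.07 and 0.14 and CHAF1B between -0.03 and 0.14.

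**Figure D5:**
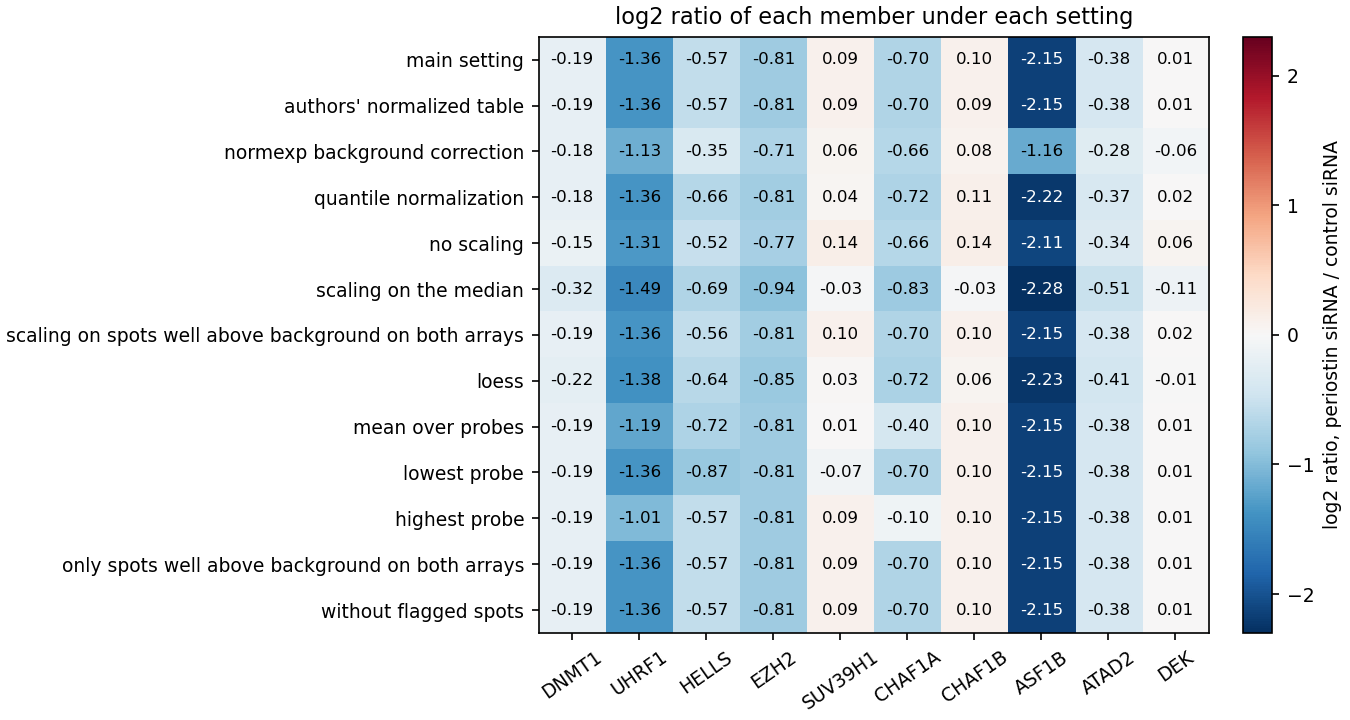
log2 ratio of each of the 10 genes in the main setting (top row) and under 12 other settings of background, scaling and probe choice, printed in each cell and coloured from blue (lower with periostin siRNA) to red (higher). The columns of ASF1B and UHRF1 are below -1 in every row, and those of DEK, SUV39H1 and CHAF1B hold values on both sides of 0.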

How the data were processed

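The authors deposited the Agilent Feature Extraction output of each array, with background-subtracted intensity values, and a table of normalized intensity values, which equalled the scanner intensity times 3.65 (control siRNA) or 3.54 (periostin siRNA). The program version was 11.5.1.1 in the file headers and 12.0.3.1 in the submitters' processing notes, and the normalization was not given in the sources used here. Each array's processed signal was put on a log2 scale, and its 75th percentile over 58717 spots, control spots excluded, was subtracted. Spots of a probe were averaged, and the probe brightest over both arrays stood for a gene. A gene counted as measured when its brightest probe was well above background on at least 1 array, with a bound where the other array was not. A bound whose sign favoured the undetected array gave no ratio. Genes without a ratio are all given in this report as below background on both arrays, which was not checked for each of their probes. RefSeq accessions (GRCh38.p14) named 38222 spots (65.1%). A list's median was taken over its measured genes.

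The 10 genes and all lists were chosen with earlier results of these data known. Named were the 10 genes with every probe, POSTN, the paralogues and, of each chromatin list, genes past 3-fold and the lowest and highest gene. PCNA, SUZ12, KMT5A, KMT5C, L3MBTL1, IPO4, ZBTB24 and TET2 were named after their values were seen. The same holds for the cell type markers in the report and the genes of the other observations. The motif letters were written after promoter windows had been inspected.

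Alternatives were normexp with an offset of 50, quantile normalization, unscaled values, the median as scale, scaling on spots well above background on both arrays, loess with a span of 0.3, the deposited table, the mean, lowest or highest probe, filters on dim and flagged spots, and thresholds of 2-fold and 4-fold. The calculation was tested on simulated data. Python 3.11.15, numpy 2.4.6, pandas 2.3.3, matplotlib 3.10.9, R 4.3.3, limma 3.58.1 and Seurat 5.3.0 were used. Of the cell type markers, 1 is not reported here.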

Additional observations from a re-analysis of the deposited data

How the results depend on the processing

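The number of the 10 genes lower by more than 3-fold was 1, and it became 0 with normexp background correction, and 2 at a threshold of 2-fold; at 2-fold it was 2 in all 12 other settings. Their median log2 ratio, -0.47, became -0.29 with the highest probe of each gene, -0.32 with normexp and -0.60 with scaling on the median. Of the other chromatin genes 2 were lower by more than 3-fold. This count became 5 at 2-fold, 1 at 4-fold, 3 with the lowest probe of each gene and 4 with scaling on the median. The last of these settings moved their median from -0.06 to -0.18. Scaling on the median lowered the median of all measured genes by 0.13, from 0.06 to -0.07, and moved the share of them below 0 from 45.5% to 55.9%. With normexp 190 of all genes were lower and 143 higher by more than 3-fold, against 441 and 541 in the main setting. Over the 10 genes and 12 settings, 112 of the log2 ratios differed from the main value by less than the spot error and 8 by more. Many of the 112 could not move. The deposited table is the scanner intensity times a constant per array, and the filters on dim and flagged spots removed no spot of the 10 genes. Probe choice changed nothing for the 6 genes with 1 probe. The count is therefore no measure of how stable the values are. No paired analysis was possible because there was a single array per condition. For the same reason no replicate could be left out, and the slide could not be fitted as a block, as both arrays lay on 1 slide. The spot errors do not cover the difference between cultures, and dim signals, as of ASF1B with periostin siRNA, limit the fold that can be read.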

Other observations

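Lists of genes known to be silenced by the marks that UHRF1, DNMT1, HELLS and EZH2 maintain were read on the same arrays. Of 30 germline genes silenced by DNA methylation in somatic cells, 27 were on the array, and 17 of these were below background on both arrays. Of the other 10, 4 were well above background on 1 array alone and 6 on both. Since a dim gene is measured through the array where it is higher, the values of single genes are given and no share or median of the list. MOV10L1, a helicase of the piRNA pathway, read 23.8 on the control array and 64.4 on the periostin array, a ratio of 1.44 ± 0.24 (propagated error), and SOHLH2, a germ cell transcription factor, read 51.1 and 119, a ratio of 1.22 ± 0.21. DDX43 read 9.80 and 24.5, a ratio of 1.32 ± 0.33, and the dimmest detected spots of the control array lay at 7.55. These 3 were the genes beyond 2-fold among the 6, all of them higher, and their signals were dim. Values of this list also depended on the background correction, and its median fell with normexp. Of all measured genes 7.97% were higher by more than 2-fold. The others of the 6 were MAGEB2 (0.69 ± 0.25), PIWIL2 (0.13 ± 0.38) and SSX2 (-0.09 ± 0.21). Of the 4 genes on 1 array alone, the bounds ran from -0.76 (TEX101) to 1.38 (MAGEC1).

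Of 22 imprinted genes, whose allele-specific methylation DNMT1 and UHRF1 copy at each division, 20 were measured, 2 of them through 1 array alone, and the 18 well above background on both arrays had a median of 0.24. PEG3 (-1.37 ± 0.22) and PHLDA2 (-1.18 ± 0.20) were lower by more than 2-fold, 2 of 20 beside 6.42% of all measured genes. MEG3 (1.57 ± 0.20), NDN (1.34 ± 0.09, SD over 10 spots), L3MBTL1 (1.19 ± 0.20), CDKN1C (1.05 ± 0.20) and KCNQ1OT1 (1.04 ± 0.26) were higher by more than 2-fold, 5 of 20 beside 7.97% of all measured genes. Imprinted genes thus had ratios on both sides of 0.

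Of 17 genes described as repressed through EZH2, 10 were well above background on both arrays, with a median of 0.02, and 1 on 1 array alone. With that gene the median was 0.12, which ran from -0.17 to 0.16 over the 12 other settings. CXCL10, a chemokine induced by interferon, was the 1 gene of this list beyond 2-fold, at 56.3 on the control array and 899 on the periostin array, 15.97-fold higher. That is 9.09% of the measured genes of the list, beside 7.97% of all measured genes higher by more than 2-fold. CDKN2A and CDKN2B, the INK4 inhibitors of cyclin-dependent kinases, had ratios of -0.12 ± 0.20 and -0.08 ± 0.22. No measurement of the marks themselves was analysed here.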
